A study of Mus musculus with 6 samples.

Results

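Matricellular proteins are secreted into the extracellular matrix, where they bind matrix fibres, growth factors and cell surface receptors such as integrins, and change how cells attach, migrate and respond. Many are made in quantity while a tissue is being built and again when it is wounded or scarred. In the cornea most of the matrix lies in the stroma, the transparent layer of collagen made by keratocytes, between the epithelium in front and the endothelium behind. Expression of 10 genes of this kind, chosen by name, was read in whole mouse corneas. They were fibronectin (Fn1), periostin (Postn), tenascin C (Tnc), the TGF-beta induced protein (Tgfbi), the thrombospondins Thbs1 and Thbs2, the CCN proteins Ccn1 and Ccn2, Sparc, and osteopontin (Spp1). The array annotation paired 9 of the 10 with a probe set, 1 each, out of 23410 probe sets with a named gene, and Spp1 was not analysed here.

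The samples were whole mouse corneas taken at postnatal day 3 and read on Affymetrix Mouse Gene 1.0 ST arrays, 3 labelled K14-DN-Clim (DN-Clim) and 3 from wild-type littermates (WT). DN-Clim mice carry a dominant-negative form of CLIM, a cofactor of LIM-domain transcription regulators, driven by the promoter of keratin 14, which is active in the basal cells of stratified epithelia. The comparison therefore places whole-cornea RNA, stroma included, beside a transgene directed to the epithelium. The labels do not say whether an array held 1 animal or a pool, so the p-values speak only of the spread among these samples, part of which may be technical. Where 3 values of a group follow each other they are those of replicates 1, 2 and 3.

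Values are log2(intensity + 16) unless called an intensity, differences are DN-Clim minus WT, and a value passed where its limma p, adjusted by Benjamini-Hochberg over the 23410 probe sets, was below 0.05. The added 16 understates the differences of dim genes. A level on one probe set cannot be set against the level on another, so only differences are compared between genes. The number of arrays limits the precision.

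The DN-Clim arrays were not alike. Of 19 lens markers, crystallins and fibre cell genes, 18 had a higher mean in DN-Clim, and their summed intensity was 151104, 152212 and 7384 in DN-Clim corneas, against 8235 to 12936 on the WT arrays. The 15 keratocyte markers, 13 of them with a lower mean in DN-Clim, summed to 24474, 19870 and 44280 in DN-Clim corneas, against 44832 to 49085 on the WT arrays, and the 14 corneal epithelial markers to 33537, 28879 and 41230, against 38103 to 43490. No marker of these 3 lists was below an intensity of 16 on all 6 arrays. DN-Clim replicate 3 correlated with DN-Clim replicates 1 and 2 at 0.921 and 0.898 over all probe sets, and with the WT arrays at 0.936 to 0.95. DN-Clim replicates 1 and 2 correlated with each other at 0.951 and each best with WT replicate 3, at 0.956 and 0.957. The results below are therefore also given without DN-Clim replicate 3 and with that array alone against WT. Of the genes that bear on the transgene, Krt14 read 11.30, 11.31 and 11.83 in DN-Clim and 12.26, 12.08 and 11.99 in WT (difference -0.63, adjusted p = 0.721). Ldb1 (0.27) and Ldb2 (0.08), the mouse CLIM genes, both had an adjusted p of 0.999, and how much of the transgene their probe sets read is not given in the sources used here.

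All 9 matricellular genes had a lower mean in DN-Clim than in WT, with differences from -1.61 to -0.17, and none passed the test with all 6 arrays. The median difference was -0.63 over the 9 genes and -0.04 over all probe sets tested, of which 57.2% had a lower mean. Adjusted p-values of the 9 ran from 0.681 to 0.999, and 0.0128% of all probe sets passed as lower (3 of them) and 0% as higher. At an unadjusted p below 0.05 there were 4 of the 9, Postn, Thbs2, Fn1 and Tgfbi, all lower in DN-Clim, where 4.49% of all probe sets were called lower at that limit. The low values stood mostly on 2 arrays. The median of the 9 genes relative to the WT mean was -0.79 on DN-Clim replicate 1, -1.12 on DN-Clim replicate 2 and 0.04 on DN-Clim replicate 3, where all probe sets had medians of -0.07, -0.16 and 0.06.

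**Figure D1:**
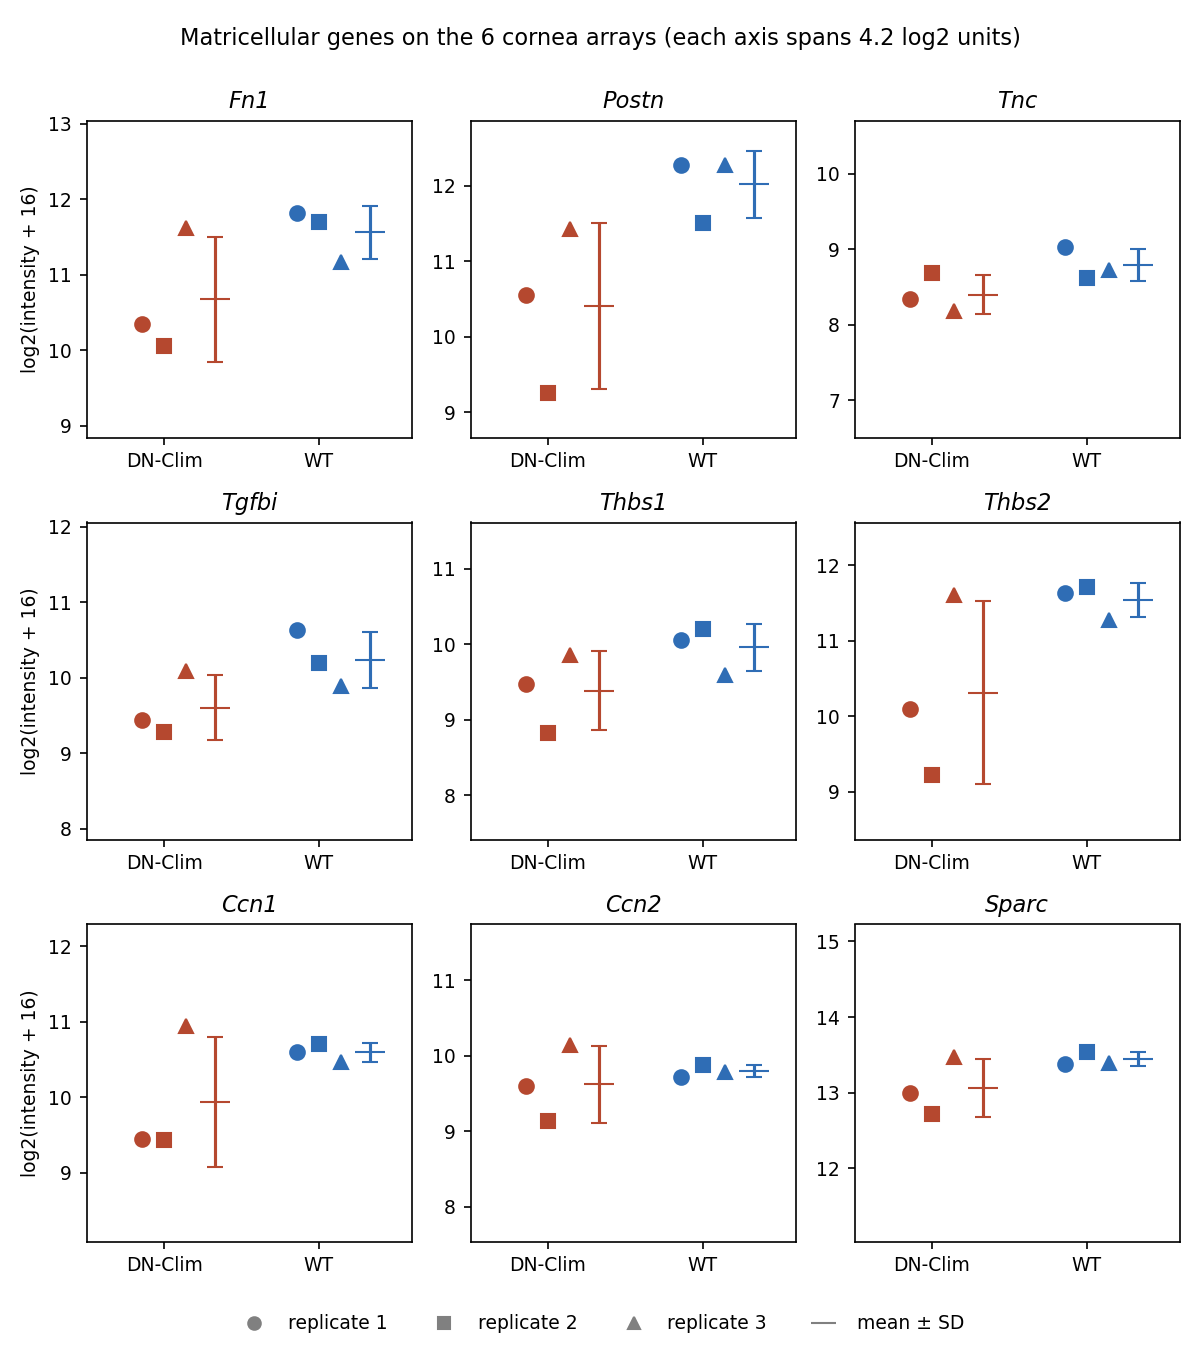
Level of each of the 9 genes, as log2(intensity + 16), on the 3 DN-Clim arrays (red, left) and the 3 WT arrays (blue, right), with bars for mean and SD (n = 3 each). On DN-Clim replicates 1 and 2 (circle and square) 8 genes lie below all 3 WT arrays, while DN-Clim replicate 3 (triangle) lies among or above the WT arrays for all genes but Postn and Tnc.

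Postn, a protein of collagen-rich tissues that binds integrins and assists collagen assembly, had the widest difference of the 9. Its intensities were 1489.8, 592.6 and 2736.9 in DN-Clim corneas, and 4936.8, 2897.7 and 4962.6 in WT corneas. The highest DN-Clim value was below the lowest WT value, although DN-Clim replicate 3 and WT replicate 2 came close. It averaged 10.41 ± 1.10 in DN-Clim and 12.02 ± 0.44 in WT (SD, n = 3 each), a difference of -1.61 (SE 0.479, 95% interval -2.69 to -0.53, adjusted p = 0.681), or a ratio of 0.327. Postn was the only 1 of the 9 whose groups did not overlap, where 6.95% of all probe sets had every DN-Clim array below every WT array and 3.20% every DN-Clim array above.

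Fn1, the fibronectin that cells use as a first scaffold for other matrix proteins, read 10.34, 10.06 and 11.62 in DN-Clim, against 11.82, 11.70 and 11.17 on the WT arrays. DN-Clim replicates 1 and 2 were more than a log2 unit below the WT mean, and DN-Clim replicate 3 lay inside the WT range. The difference was -0.89 (SE 0.379, interval -1.75 to -0.04, adjusted p = 0.828).

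Tgfbi, an abundant corneal matrix protein whose mutations cause stromal dystrophies in humans, read 9.44, 9.28 and 10.09 in DN-Clim and 10.63, 10.19 and 9.89 in WT. The groups overlapped through DN-Clim replicate 3 and WT replicate 3, and the difference was -0.63 (SE 0.271, interval -1.24 to -0.02, adjusted p = 0.833).

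Tnc, a large hexameric glycoprotein of developing and healing tissue, did not follow that order. It read 8.34, 8.68 and 8.18 in DN-Clim and 9.03, 8.62 and 8.73 in WT, with its lowest value on DN-Clim replicate 3 and its highest DN-Clim value on replicate 2. The difference was -0.40 (SE 0.208, interval -0.86 to 0.07, adjusted p = 0.915).

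The thrombospondins, secreted glycoproteins that restrain blood vessel growth and, in the case of Thbs1, can activate latent TGF-beta, were both below all WT arrays on DN-Clim replicates 1 and 2. Thbs2 had intensities of 1081.3, 579.1 and 3112.3 in DN-Clim corneas, against 3158.2, 3340.4 and 2472.9 in WT corneas. DN-Clim replicate 3 stood between the WT values and the other DN-Clim arrays far below them, so that the DN-Clim SD of 1.21 exceeded the WT SD of 0.23. The Thbs2 difference was -1.23 (SE 0.496, interval -2.35 to -0.11, adjusted p = 0.819). Thbs1 read 9.47, 8.83 and 9.86 in DN-Clim and 10.06, 10.20 and 9.60 in WT, a difference of -0.57 (SE 0.284, interval -1.21 to 0.07, adjusted p = 0.897). Taken as deviations from their WT means, Thbs2 minus Thbs1 was -0.96, -1.20 and 0.17 log2 units in DN-Clim, while the same quantity lay between -0.08 and 0.09 on the WT arrays, and this difference between the genes was not tested.

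The CCN proteins Ccn1 and Ccn2 are short-lived secreted signals whose genes respond quickly to growth factors, stretch and the YAP and TAZ coactivators. Ccn1 had intensities of 684.9, 675.3 and 1948.2 in DN-Clim corneas, against 1528.8, 1649.7 and 1403.4 in WT corneas. DN-Clim replicates 1 and 2 were below all WT arrays and DN-Clim replicate 3 above all of them, which for that array held for 39.8% of all probe sets. The difference was -0.65 (SE 0.370, interval -1.48 to 0.19, adjusted p = 0.942). Ccn2 followed a narrower course, with 9.59, 9.13 and 10.14 in DN-Clim and 9.71, 9.88 and 9.78 in WT, and it too was below all WT arrays on DN-Clim replicates 1 and 2 and above all of them on replicate 3. Its difference was -0.17 (SE 0.256, interval -0.75 to 0.41, adjusted p = 0.999).

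Sparc, a calcium-binding protein that takes part in collagen fibril assembly, read 13.00, 12.71 and 13.47 in DN-Clim and 13.38, 13.54 and 13.39 in WT. DN-Clim replicate 3 lay inside the WT range and the other 2 DN-Clim arrays below it. The difference was -0.37 (SE 0.223, interval -0.88 to 0.13, adjusted p = 0.958).

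Without DN-Clim replicate 3, 4 of the 9 genes fell and none rose, where 1.52% of all probe sets passed as lower and 0.547% as higher. Ccn1 fell by 1.15 (SE 0.155, adjusted p = 0.0138), Thbs2 fell by 1.88 (SE 0.269, adjusted p = 0.0162), Fn1 fell by 1.36 (SE 0.224, adjusted p = 0.0263) and Postn fell by 2.12 (SE 0.387, adjusted p = 0.0378). The other 5 did not pass, with Tgfbi at -0.87 (adjusted p = 0.0965), Sparc at -0.58 (0.119), Thbs1 at -0.80 (0.145), Ccn2 at -0.43 (0.234) and Tnc at -0.28 (0.400). Each array was left out in turn, and DN-Clim replicate 3 is singled out here with earlier results of these data known. The 2 DN-Clim samples that remain are those with the lens signal, and the part of that signal in these differences was not tested. On both of these arrays 8 of the 9 genes were below all WT arrays, where this held for 27.8% of all probe sets. At least a log2 unit below the WT mean on both were 4 of the 9, Postn, Thbs2, Fn1 and Ccn1, against 1.23% of all probe sets.

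With DN-Clim replicate 3 alone against the 3 WT arrays, taking the spread of that lone sample to be that of WT, none of the 9 genes passed, where 0.312% of all probe sets passed as lower and 0.0256% as higher. Their median difference was 0.04, the adjusted p-values ran from 0.198 to 0.930, and the differences from -0.62 for Tnc to 0.35 for Ccn1 and Ccn2. The 95% intervals reached from -0.58 to 0.68 for Fn1 and from -0.45 to 0.59 for Thbs2. For Postn (-1.33 to 0.14) and Tnc (-1.12 to -0.12) the same array lay below all WT arrays, which held for 28.2% of all probe sets.

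**Figure D2:**
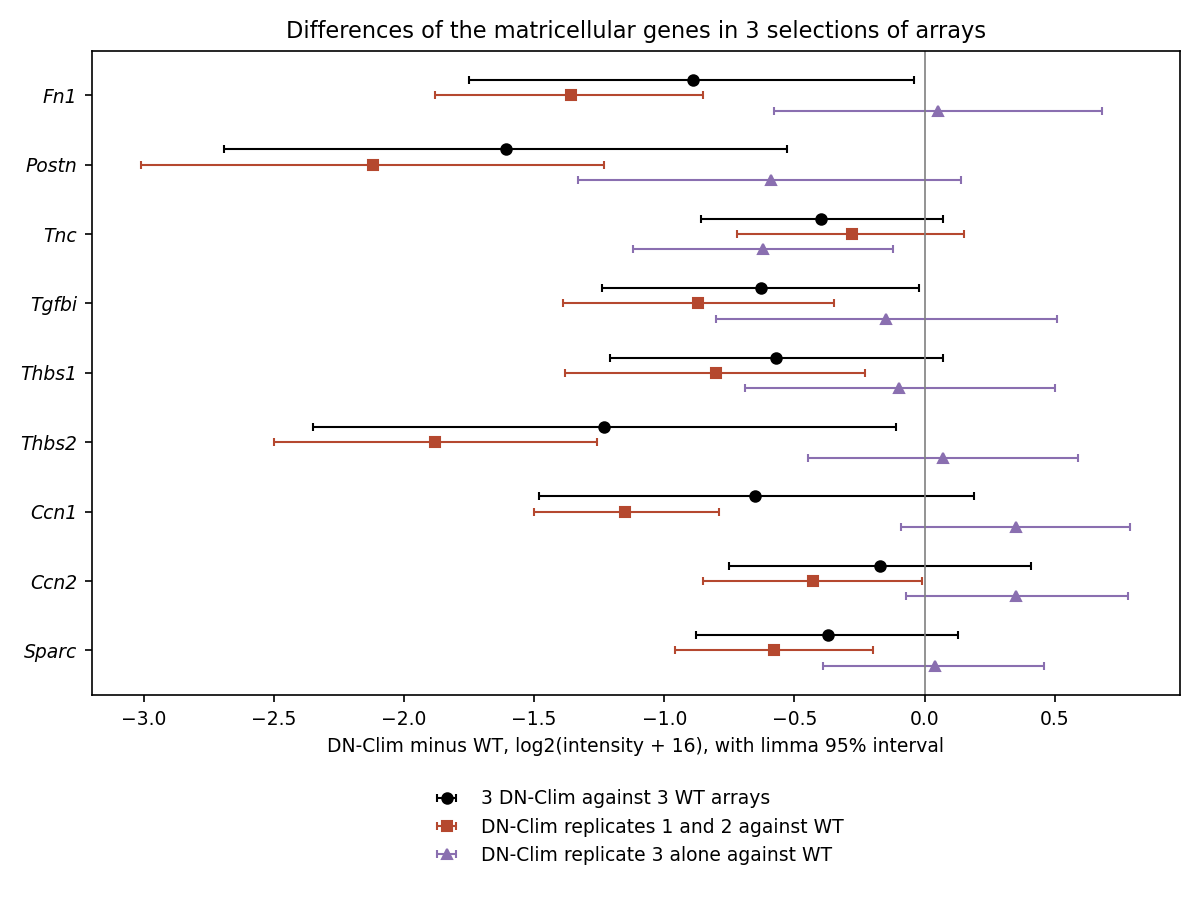
Difference DN-Clim minus WT in log2(intensity + 16) for the 9 genes, with limma's 95% interval, for all arrays (black circles), DN-Clim replicates 1 and 2 against WT (red squares) and DN-Clim replicate 3 alone against WT (purple triangles). The red squares run from -2.12 for Postn to -0.28 for Tnc, and the purple triangles from -0.62 for Tnc to 0.35 for Ccn1 and Ccn2.

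Markers of the cell types of the cornea and its neighbours were read on the same arrays. The keratocyte list had medians relative to the WT mean of -1.07, -1.75 and -0.02 on the DN-Clim arrays, the same order as the -0.79, -1.12 and 0.04 of the 9 genes. That order was not particular to keratocytes. The epithelial, vascular endothelium, and sclera, tendon and cartilage medians given below had it. So did those of conjunctiva (-0.43, -0.74 and -0.33) and skeletal muscle (0.41, -0.19 and 0.95). Kera, Lum and Dcn, proteoglycans of the corneal stroma, read 12.12, 11.69 and 12.21 on DN-Clim replicate 1 and 11.96, 10.85 and 11.83 on DN-Clim replicate 2. On DN-Clim replicate 3 they read 12.75, 12.74 and 13.12, where the WT arrays ran from 12.56 to 13.09 for Kera, 12.58 to 12.90 for Lum and 13.05 to 13.26 for Dcn. Aldh1a1 and Ptgds, an aldehyde dehydrogenase and a prostaglandin synthase, went the other way, as the 2 markers of the list with a higher mean. Aldh1a1 read 10.66, 11.21 and 10.09 in DN-Clim and 9.20, 9.62 and 9.68 in WT, and Ptgds 10.47, 11.01 and 9.87 in DN-Clim and 9.66, 9.67 and 9.85 in WT. Neither passed with all 6 arrays (adjusted p = 0.612 and 0.795), and without DN-Clim replicate 3 both rose, by 1.44 and 1.01 (adjusted p = 0.0226 and 0.0464), while 8 of the 15 fell. In whole-cornea RNA fewer cells of a type, less RNA per cell and more RNA from other tissue cannot be told apart. The sclera, tendon and cartilage medians were -0.39, -1.19 and 0.03 in DN-Clim. The lens medians on the same arrays were 3.59, 3.81 and -0.10, the retina medians 1.17, 1.70 and 0.20, the epithelial medians -0.23, -0.70 and 0.04, and the macrophage medians -0.46, -0.40 and -0.33. The vascular endothelium medians were -0.46, -0.76 and -0.17, with 10 of 12 markers lower in mean and 6 of 12 with every DN-Clim array below every WT array. Their summed intensity was 3691, 3514 and 4606 in DN-Clim corneas, against 6136 to 6399 in WT corneas. Emcn, the endothelial sialomucin endomucin, read 7.31, 7.39 and 7.68 in DN-Clim and 9.82, 9.74 and 10.14 in WT, and it fell by 2.44 with all 6 arrays (SE 0.198, adjusted p = 0.0113). The part that any of these lists has in the values of the 9 genes and of the related genes below was not tested.

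**Figure D3:**
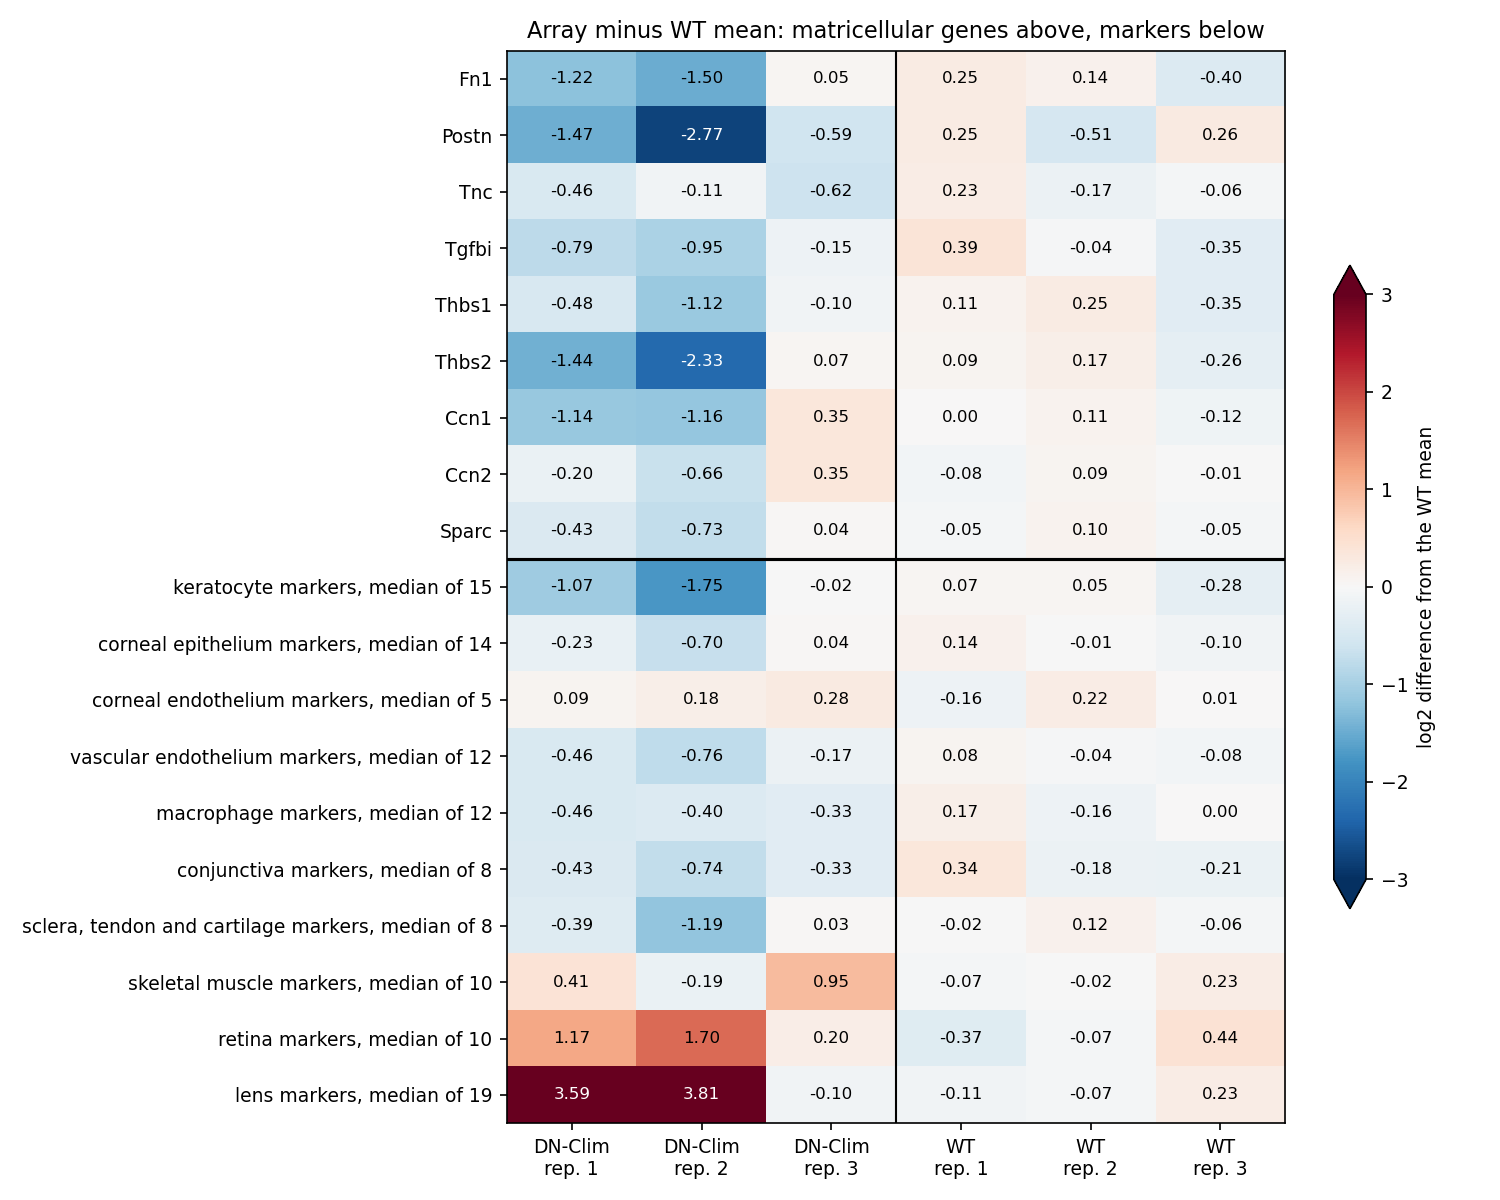
Deviation of every array from the WT mean in log2(intensity + 16), for the 9 genes (rows above the black line) and for the median of 10 cell type marker lists (rows below it), with DN-Clim arrays left and WT arrays right. The keratocyte list and all of the 9 genes but Tnc read lowest on DN-Clim replicates 1 and 2, where the lens list reads 3.59 and 3.81. Tnc (-0.62) is lowest on DN-Clim replicate 3, where Postn (-0.59) is also low, and single WT cells are blue too.

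The 9 genes also differed in how closely each tracked the others over the 6 arrays. The correlation of each gene with the mean of the remaining 8 was between 0.811 and 0.988 for all but Tnc, where it was 0.153 (Pearson, n = 6 arrays, a description). These values rest on DN-Clim replicates 1 and 2. Over the other 4 arrays the correlation was 0.966 for Tgfbi, 0.822 for Fn1, 0.681 for Thbs1 and 0.625 for Thbs2, and between -0.503 and 0.247 for Postn, Tnc, Ccn1, Ccn2 and Sparc. Outside the 9, the 8 genes whose levels were most like their mean were Lama2, Mmp2, Gnb4, Phldb2, Ets1, Elk3, Emp1 and Slc43a3, with correlations of 0.995 to 0.999 over the 6 arrays and 0.864 to 0.997 over the 4. Lama2, a laminin chain of mesenchymal basement membranes, read 8.48, 7.73 and 9.76 in DN-Clim and 10.15, 10.04 and 9.72 in WT. Mmp2, a gelatinase of stromal cells, read 9.49, 8.84 and 10.59 in DN-Clim and 11.03, 10.80 and 10.58 in WT. Such likeness was common, since 318 of 11667 genes with a mean of at least 8 correlated above 0.95, and all values share the same 6 arrays.

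Upstream sequence is shown for Ccn1, Thbs2 and Postn, 3 of the 4 genes that fell without DN-Clim replicate 3, to set their promoters side by side. No entry was found for Fn1, the remaining gene of the 4. The 250 bases before the annotated start come from RefSeq for GRCm38.p6, 5′ to 3′ on the strand of the gene. The windows are chr3:145649986-145650235 on the minus strand for Ccn1, chr17:14694263-14694512 on the minus strand for Thbs2, and chr3:54360857-54361106 on the plus strand for Postn, where the start used is the second of 2 annotated ones. Capitals mark TATAAA, the core of the TATA box, and GGAATG, the site of TEAD factors, on either strand.
Ccn1: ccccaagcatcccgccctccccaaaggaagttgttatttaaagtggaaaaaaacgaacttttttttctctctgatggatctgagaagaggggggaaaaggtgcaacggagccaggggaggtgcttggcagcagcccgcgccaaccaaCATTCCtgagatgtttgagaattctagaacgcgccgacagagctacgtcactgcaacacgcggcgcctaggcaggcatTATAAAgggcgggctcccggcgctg
Thbs2: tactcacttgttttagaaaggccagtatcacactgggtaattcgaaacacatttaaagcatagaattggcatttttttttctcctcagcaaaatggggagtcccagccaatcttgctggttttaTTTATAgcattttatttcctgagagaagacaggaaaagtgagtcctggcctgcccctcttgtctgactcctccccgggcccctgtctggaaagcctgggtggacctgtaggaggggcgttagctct
Postn: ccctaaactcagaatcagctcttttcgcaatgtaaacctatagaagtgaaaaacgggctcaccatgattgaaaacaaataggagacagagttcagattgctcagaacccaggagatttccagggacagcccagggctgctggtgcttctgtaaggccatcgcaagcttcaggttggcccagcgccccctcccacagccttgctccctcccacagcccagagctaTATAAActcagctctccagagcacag
Ccn1 held TATAAA from 25 to 20 bases before the start and GGAATG, on the opposite strand, from 103 to 98 bases before it. Postn held TATAAA from 26 to 21 bases before this start, and Thbs2 held it 126 to 121 bases before, on the opposite strand. The other annotated start of Postn had neither motif before it. Entries were found for 7 of the 10 genes, Spp1 included, with 10 windows in all, and none for Fn1, Thbs1 and Ccn2. TATAAA was found in 6 of the 10 windows, with the same site counted in both overlapping Tnc windows, GGAATG in 1, and none held a CArG box of serum response factor or CTTTGA, the core site of the Wnt effectors TCF and LEF. Among 32851 windows of the same length, before all annotated starts, these motifs were found in 12.4%, 12.6%, 1.47% and 13.8%. The motifs do not overlap in these windows, and a match describes the letters only.

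Genes related to the 9 by function were read from 5 lists, 91 genes measured of 93 listed. None of the 91 passed with all 6 arrays, and 16 of them (17.6%) had every DN-Clim array below every WT array, against 6.95% of all probe sets. At an unadjusted p below 0.05, 26 were lower and 0 higher, against 4.49% and 1.45% of all probe sets. Without DN-Clim replicate 3, 11 of the 91 (12.1%) fell and 0 rose, against 1.52% and 0.547%. Earlier results of these data were known when the lists and the array to leave out were chosen. These shares therefore describe the lists and are not a test of them.

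Of 24 other matricellular proteins 21 had a lower mean in DN-Clim, with a median difference of -0.44. The smallest p belonged to Ecm1, a glycoprotein of skin and basement membranes, which read 7.37, 7.47 and 7.50 in DN-Clim and 8.58, 8.38 and 8.26 in WT (difference -0.96, SE 0.178, adjusted p = 0.365). All 3 DN-Clim arrays were low for Ecm1, replicate 3 included. Ccn3, another CCN protein, differed by -1.47 (SE 0.474, adjusted p = 0.711). Fbln2, a fibulin that binds fibronectin and basement membranes, differed by -1.02 (SE 0.340, adjusted p = 0.738). Both were without overlap, but the groups came close and WT replicate 1 stood highest. Ccn3 read 7.74, 7.35 and 6.97 in DN-Clim and 10.02, 7.83 and 8.64 in WT. Fbln2 read 8.17, 7.58 and 8.59 in DN-Clim and 9.81, 8.90 and 8.68 in WT. Without DN-Clim replicate 3 the 5 that fell, named after their values were seen, were Thbs4, Fbln5, Fstl1, Sparcl1 and Ecm1. Thbs4, a thrombospondin of tendon and muscle, fell by 2.12 (SE 0.301, adjusted p = 0.0160) and Sparcl1, the nearest relative of Sparc, fell by 1.54 (SE 0.231, adjusted p = 0.0193). With DN-Clim replicate 3 alone these read -0.04 and 0.11.

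Of 16 receptors that bind matricellular proteins 14 had a lower mean, with a median of -0.19. Itga8, the integrin chain that pairs with beta 1 to bind fibronectin and tenascin C, read 7.53, 7.01 and 7.54 in DN-Clim and 8.45, 8.30 and 8.16 in WT (difference -0.95, SE 0.208, adjusted p = 0.512). Cd36, a receptor of thrombospondin on vessels and macrophages, differed by -0.82 (SE 0.220, adjusted p = 0.612), and Lrp1, an endocytic receptor that clears thrombospondins, by -0.62 (SE 0.264, adjusted p = 0.828). Without DN-Clim replicate 3, Itga8 alone of the 16 fell, by 1.04 (SE 0.199, adjusted p = 0.0446).

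In the TGF-beta list 9 of 15 genes had a lower mean and 6 a higher one, with a median of -0.22. Tgfb3, a ligand of the pathway, read 8.62, 7.80 and 8.08 in DN-Clim and 9.51, 8.74 and 8.97 in WT (difference -0.91, SE 0.274, adjusted p = 0.690), with no overlap. Tgfbr2, the receptor that binds ligand first, differed by -0.66 (SE 0.269, adjusted p = 0.819). Ltbp1, which holds latent TGF-beta on the matrix, had the widest difference of the list with 9.57, 9.18 and 11.01 in DN-Clim and 11.02, 10.97 and 10.55 in WT (difference -0.93, SE 0.413, adjusted p = 0.845). It fell by 1.47 without DN-Clim replicate 3 (SE 0.207, adjusted p = 0.0159).

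YAP, TEAD and SRF control Ccn1 and Ccn2 in many cells. The list of these factors, their regulators and targets had a median of -0.08 over 16 genes, near the -0.04 of all probe sets. These are RNA levels, and the activity of the factors was not measured. Vgll3, a cofactor of TEAD factors, stood apart with 7.11, 6.91 and 7.48 in DN-Clim and 8.66, 8.88 and 8.46 in WT. All DN-Clim arrays were about a log2 unit or more below the lowest WT array, and the difference was -1.50 (SE 0.214, adjusted p = 0.176). Vgll3 fell by 1.66 without DN-Clim replicate 3 (SE 0.181, adjusted p = 0.00712) and differed by -1.19 on that array alone. Lats2 and Ajuba, which act on YAP, differed by -0.33 (SE 0.249) and -0.26 (SE 0.243), both with an adjusted p of 0.999.

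All 20 genes measured of the myofibroblast and collagen cross-linking list had a lower mean in DN-Clim, with a median of -0.71. Acta2, the actin of smooth muscle and myofibroblasts, read 9.59, 8.70 and 9.19 in DN-Clim and 10.37, 11.23 and 10.24 in WT (difference -1.45, SE 0.313, adjusted p = 0.498). Fap, a serine protease of activated fibroblasts, differed by -1.40 (SE 0.313, adjusted p = 0.512) and Cnn1, calponin, by -0.94 (SE 0.225, adjusted p = 0.612), and the groups overlapped for none of these 3. Without DN-Clim replicate 3, 3 of the 20 fell, Fap, P4ha3 and Pcolce, the last 2 named after their values were seen. Fap fell by 1.66 (SE 0.284, adjusted p = 0.0299), P4ha3, a collagen prolyl hydroxylase, fell by 1.77 (SE 0.265, adjusted p = 0.0193), and Pcolce, an enhancer of procollagen processing, fell by 1.32 (SE 0.259, adjusted p = 0.0469).

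**Figure D4:**
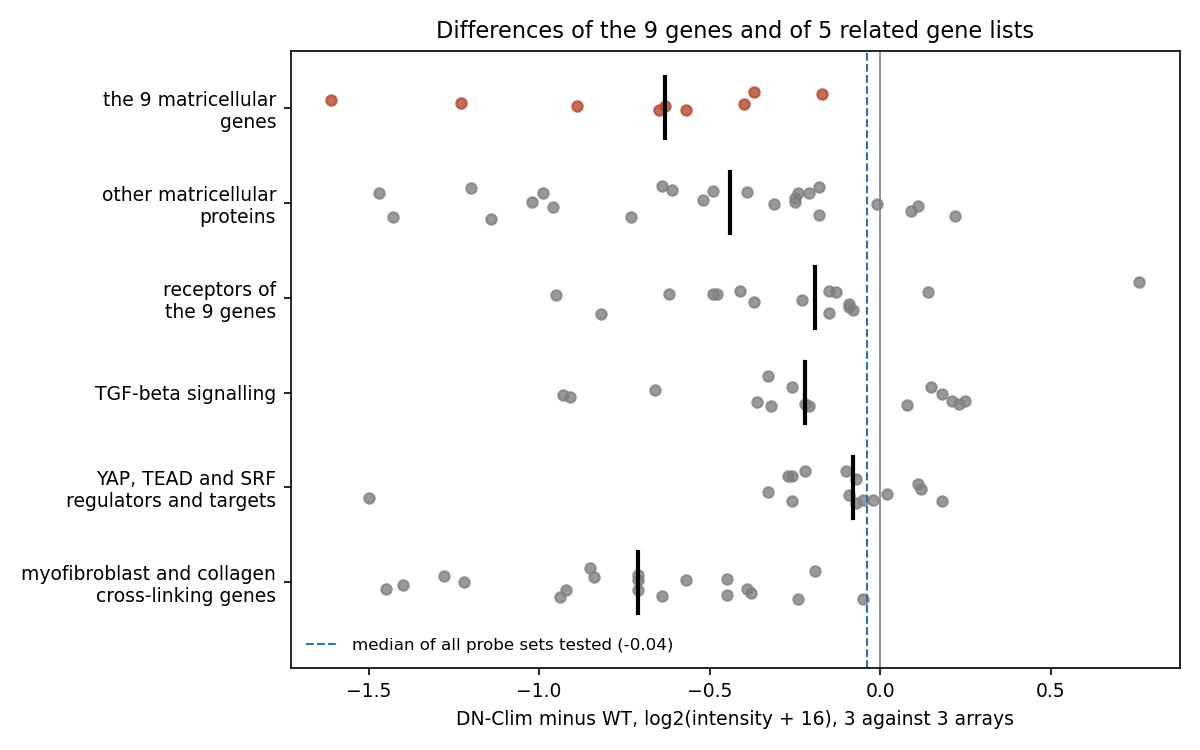
Difference DN-Clim minus WT in log2(intensity + 16) with all 6 arrays, 1 point per gene, for the 9 matricellular genes (red) and for 5 lists of related genes (grey), with a black bar at each median and a dashed line at the median of all probe sets tested (-0.04). The medians are -0.63 for the 9 genes, -0.44, -0.19, -0.22 and -0.08 for the next lists from above, and -0.71 for the last.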

How the data were processed

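Whole-cornea RNA of 3 DN-Clim and 3 WT samples at postnatal day 3 was amplified with NuGEN kits and hybridised to Affymetrix Mouse Gene 1.0 ST arrays, per the labels' protocols. The deposited values are probe set intensities on a linear scale, made with Affymetrix Expression Console 1.1 and PLIER, per the submitters' processing notes. How background was corrected, how arrays were normalized and whether an offset was added is not given in the sources used here. Median intensities ran from 231 to 281, and 2.26% to 3.23% of values lay below 16.

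Of 35557 probe sets, 23410 had at least 1 gene in the platform table and were tested, and 21797 had exactly 1 symbol. Values were taken as log2(intensity + 16) and fitted with limma 3.58.1 in R 4.3.3 (lmFit, eBayes, Benjamini-Hochberg). The fit was tested on simulated data with independent noise and the same SD in both groups. In the real data the median SD of all probe sets tested was 0.32 in DN-Clim and 0.16 in WT. That test therefore does not cover groups of unequal spread or arrays that deviate as a whole. A gene with several probe sets is represented by the one with the highest mean. Counts run over 9 genes rather than 10, since Spp1 was not analysed here. The 9 genes were always named, as were the 3 genes of each related list with the smallest p where none passed, and the 8 genes most like the mean of the 9. The genes and lists were chosen with earlier results of these data known. Replicate numbers are shared by the groups, but same-numbered samples did not deviate together (correlations of 0.0172, -0.206 and -0.436 for numbers 1, 2 and 3), so no block was used. The 16 alternatives tried are other offsets, normalizations, filters, priors and weights, the block, and arrays left out.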

Additional observations from a re-analysis of the deposited data

How the results depend on the processing

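Sensitivity of the 9 genes was read from 16 alternatives, all planned except for the estimator of the array weights. No second probe set could be tried, since each of the 9 has 1. Of the 144 comparisons of a gene with an alternative, 129 kept direction and side of the threshold, 9 came to pass and 6 turned direction, the last without passing. Leaving out single arrays moved Ccn2 between -0.43 and 0.08, turning it without DN-Clim replicate 2. With DN-Clim replicate 3 alone Fn1 (0.05), Thbs2 (0.07), Ccn1 (0.35), Ccn2 (0.35) and Sparc (0.04) turned, as the median of the 9 moved to 0.04. On that array 2 of the 9 lay below and 2 above all WT arrays, against 28.2% and 39.8% of all probe sets. The number of the 9 that passed was 0, 4 without DN-Clim replicate 3 and 0 without any other single array, and 5 with array weights. Those weights were 3.06, 0.385 and 0.199 for DN-Clim replicates 1, 2 and 3, estimated gene by gene, because the default estimate did not converge. Leaving out single arrays gave 1 to 8 of the 9 with every DN-Clim array below every WT array. The 8 came without DN-Clim replicate 3, where this held for 27.8% of all probe sets, against 6.95% with 6 arrays. There were 5 without WT replicate 3, and 2 each without DN-Clim replicate 2 and WT replicate 2. Fewer arrays make such separation easier for any probe set. The share of all probe sets was not computed for these omissions, so their counts are not a result about the 9. Of all probe sets, 3 passed with 6 arrays, 1390 at an unadjusted p below 0.05. That number was 1 with quantile normalization, 5 with a trended robust prior, 2059 with array weights and 79 with DN-Clim replicate 3 alone. It was 483 without DN-Clim replicate 3 and 0 without any other single array (limma, 638 to 1240 at an unadjusted p below 0.05). It was also 0 with every probe set of the table (1817 at an unadjusted p below 0.05). With the replicate block it was 9, and the block changed no call among the 9 genes. The related lists had 0 genes past the threshold. Without DN-Clim replicate 3 they had 5 (other matricellular proteins), 1 (receptors), 1 (TGF-beta), 1 (YAP, TEAD and SRF) and 3 (myofibroblast), and 0 without any other single array. With array weights they had 8, 5, 2, 1 and 11. The cause of these moves was not tested. Detection calls were not used here, so how far each probe set stood above background is unknown.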

Other observations

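Markers of neighbouring tissues also differed by array, and not only among the DN-Clim arrays. The 8 conjunctiva markers summed to intensities of 18083, 11219 and 11085 on WT replicates 1, 2 and 3. In DN-Clim corneas they summed to 10170, 7699 and 11500. The 10 skeletal muscle markers summed to intensities of 5721, 2380 and 10525 in DN-Clim corneas (replicates 1, 2 and 3), and 2449 to 4272 in WT corneas. Of these sums Tnnc2 alone gave 2869.3, 347.4 and 4828.5 in DN-Clim and 928.3, 328.2 and 1730.3 in WT. A lower mean in DN-Clim was found for 3 of the 10 and a higher one for 7. The 8 markers of sclera, tendon and cartilage summed to 4006, 2256 and 8233 in DN-Clim, and 8346 to 10345 in WT. Thbs4 alone gave 1180.6, 648.2 and 3765.6 of these sums in DN-Clim and 3940.2, 5030 and 2904.8 in WT. Thbs4 and Comp also belong to the list of other matricellular proteins, so the 2 lists are not separate.

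The differences among relatives were of unequal size on the same arrays. Ccn1, as a deviation from its WT mean in log2 units, minus Ccn2, taken in the same way, was -0.93, -0.49 and 0 in DN-Clim corneas and between -0.11 and 0.08 on the WT arrays. These values were not tested.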
